A study of Rattus norvegicus with 12 samples.

Results

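Synaptic vesicle and neuronal structure genes were followed in N27 cells, an immortalised rat line described by the submitters as dopaminergic and neural. The set was a list of 41 genes, found on the array by the gene name of each probe, and all 41 were present, with 77 of the 45598 probes and against 18299 genes with a symbol on the array. Total RNA was taken from 6 samples treated for 24 h with 25 µM fipronil and from 6 samples of untreated control cells, each labelled with Cy3 and hybridised to its own one-colour array. Fipronil, an insecticide of the phenylpyrazole class, blocks GABA-gated chloride channels, and the study's title asks what the pesticide does in these cells. All samples are of 1 cell line, the labels do not say whether control cells received a vehicle, and nothing says that the samples of a group came from separate cultures, so the p-values reflect how far these particular samples vary, which may be technical variation only.

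Neurotransmitter release rests on SNARE proteins, which draw a vesicle onto the plasma membrane and fuse the membranes. Synaptotagmins sense the calcium that triggers fusion, complexins hold the partly assembled SNARE complex ready, and the ATPase NSF with its adaptor alpha-SNAP takes the complex apart again. Neurons use dedicated family members for this work (Snap25, Syt1, Syp, Syn1), while most cells carry related proteins for general membrane traffic (Snap23, Vamp3, Stx4). Neurofilaments, MAP2 and stathmins shape axons and dendrites, and RNA-binding proteins such as NeuN (Rbfox3) mark mature neurons.

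The 12 arrays lay on 3 slides. Slide 1 held fipronil replicates 7 and 8 and control replicates 2 and 3, slide 3 held fipronil replicates 1 to 4 alone, and slide 2 held control replicates 5 to 8 alone. Signal at the 75th percentile averaged 126 on slide 3, 260 on slide 1 and 436 on slide 2. Slide 1 is therefore the one place where treatment and slide can be separated, with 2 arrays in each group. Signals below are log2 values relative to each array's own 75th percentile, which is set at 0, and the number of arrays limits their precision.

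The 41 genes divided into 19 that were detected well enough to be tested and 22 that were not. A probe counted as detected on an array when the scanner software called it well above background, and a gene was tested when a probe reached this on at least 6 of the 12 arrays. Of the 41 genes 19 were tested (46.3%), against 52.1% of all genes with a symbol. In 18 of the 22 others no probe stood well above background on any array. These 18 were the SNARE gene Snap25, the calcium sensors Syt1 and Syt4, the complexin Cplx1, the vesicle membrane protein synaptophysin (Syp), the vesicle-coating synapsin Syn2, the active zone scaffold Rims1, the light neurofilament subunit Nefl, its partner internexin (Ina), Map2, the stathmins Stmn2 and Stmn3, doublecortin (Dcx), the growth cone protein Gap43, and the RNA-binding proteins Rbfox3, Celf4, Elavl3 and Elavl4. In a total RNA extract, expression in few cells and little RNA in each cell cannot be told apart.

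The remaining untested genes reached detection on a few control arrays and on 0 of 6 fipronil arrays. Synapsin 1 (Syn1), the medium neurofilament subunit Nefm and the heavy subunit Nefh were each detected on 1 of 6 control arrays. Ntrk2, which encodes the receptor TrkB for BDNF, was detected on 2 of 6 control arrays. The fipronil arrays of slide 3 were the dimmest of the 12, so detection counts are not compared between the groups.

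Members of the SNARE family and of its disassembly machinery were nearly all tested. Of 8 SNARE genes 7 were tested, Snap23, Snap29, Stx1a, Stx4, Vamp1, Vamp2 and Vamp3, and each had a probe well above background on all 12 arrays. The same held for Nsf and for Napa, which encodes alpha-SNAP. Among the calcium sensors and clamps, Syt11, a synaptotagmin that does not bind calcium, and the complexin Cplx2 were detected on 12 arrays. Sypl1, a widely expressed relative of synaptophysin, the liprin scaffold gene Ppfia1, stathmin 1 (Stmn1), which destabilises microtubules in dividing cells, and the adhesion molecules Ncam1 and L1cam were also detected on all 12. The gene probe was well above background on all 12 arrays for 16 of the 19 tested genes. The exceptions were beta-III tubulin (Tubb3; 4 of 6 fipronil and 5 of 6 control arrays), the postsynaptic scaffold PSD-95 (Dlg4; 1 of 6 fipronil and 5 of 6 control arrays) and the neurotrophin Bdnf (1 of 6 fipronil and 6 of 6 control arrays). Other probes of some tested genes were not detected. Of 3 Vamp1 probes 1 reached detection on 6 arrays or more, and the others were well above background on 0 and 1 arrays. The second probes of Vamp2 and Dlg4 were well above background on 0 of 6 arrays in each group.

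**Figure D1:**
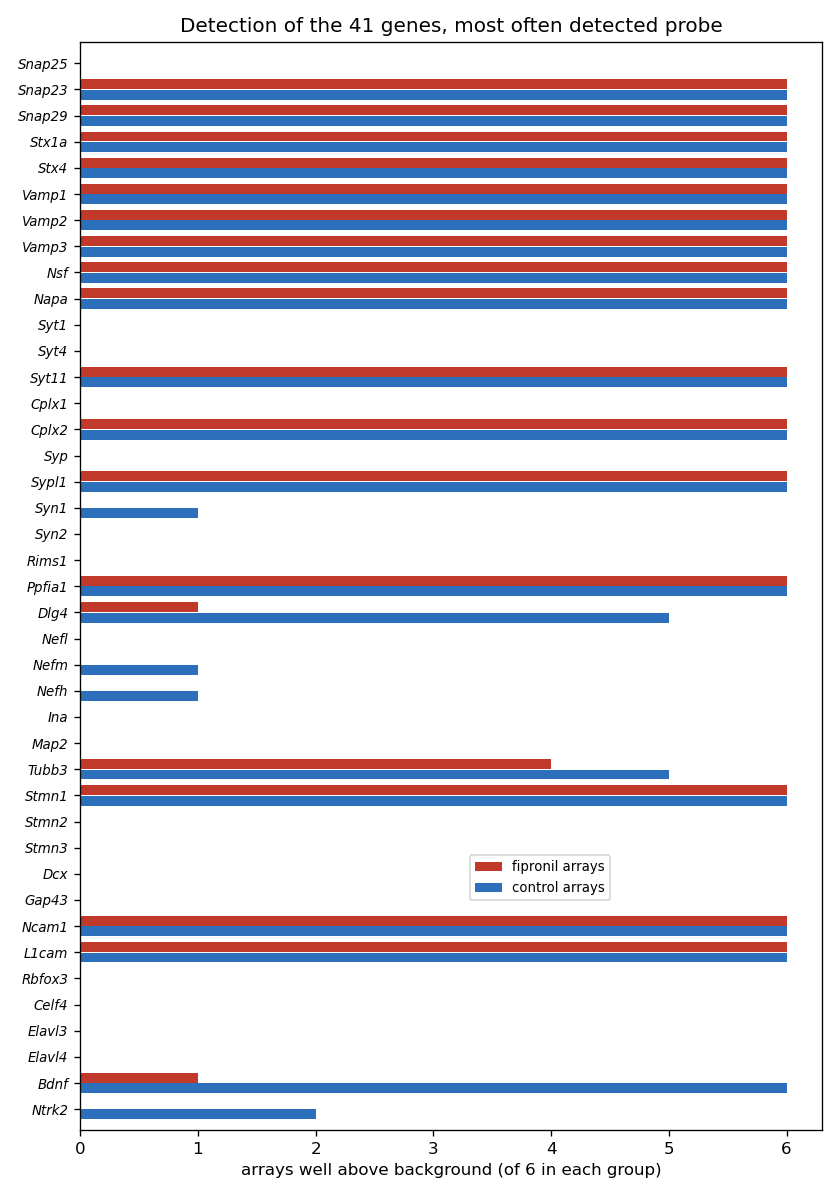
Number of arrays, of 6 in each group, on which the most often detected probe of each of the 41 genes was well above background, with fipronil arrays in red above control arrays in blue. All SNARE genes other than Snap25 fill both rows, Stx1a and Vamp2 of synapses as well as Snap23 and Stx4, and 18 genes, Snap25, Syt1, Syp and Map2 among them, have no bar.

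The label of the line was set against marker genes of other cell types. Of 9 dopaminergic neuron markers 2 were tested, tyrosine hydroxylase (Th; well above background on all 12 arrays) and Aldh1a1, while the dopamine transporter gene Slc6a3, Ddc, Pitx3 and Foxa2 were well above background on 0 arrays. Of 6 neuron markers Tubb3 alone was tested. Of 6 neural progenitor markers 3 were tested, the filament genes Nes and Vim, detected on all 12 arrays, and Sox2, on 8, while Pax6, Prom1 and Msi1 were at 0. Of the astrocyte, oligodendrocyte, microglia and endothelial markers, 1 of 7, 2 of 8, 2 of 6 and 2 of 6 were tested. Gfap, Mbp, Aif1 and Pecam1 were at 0 arrays, whereas Gja1, Cx3cr1, Cd68, Vwf and Flt1 of these lists were well above background on all 12. Of 8 fibroblast and mesenchymal markers 3 were tested, with Col1a1 and Acta2 on all 12 arrays. Over all 8 marker lists 16 of 56 genes were tested, and in the comparison below 1 rose and 0 fell (limma, with 8 at an unadjusted p under 0.05), against 5.01% and 25% of all genes past these thresholds. Nothing is read from the 8. Mag, Sox2 and Aldh1a1 among them were well above background on 2 of 6 fipronil and 6 of 6 control arrays. Mag, Cnp, Th and Flt1 had the opposite sign within slide 1, and the others of the 8 the same sign. The gene that rose, the collagen gene Col1a1, had a log2 difference of 0.98 (limma adjusted p 0.0375). It was 0.09 within slide 1, beside 1.42 between slide 3 fipronil and slide 2 control arrays. The transcriptional repressor Rest, which silences neuronal genes in cells that are not neurons, was chosen here after its values were seen. It was detected on all 12 arrays, with a log2 difference of -0.13. Whether Rest bears on the undetected neuronal genes was not tested.

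The probes behind the genes that changed are shown first, because probes of 1 gene did not always agree. Each probe is 60 bases long and the last 30 bases are given 5′ to 3′, with coordinates on rn4 as the array files list them. Strand is the order in which the files list the ends, which matched the strand of the RefSeq annotation (GRCr8) for 96% of 19750 probes. Capitals mark the hexamer AATAAA, read on the strand shown, the usual signal for cleavage and polyadenylation near the 3′ end of a transcript. It occurs in these 30 bases in 7.18% of all probes and in 6 of the 77 probes here.
Cplx2 detected probe (chr17:16310812-16310871, minus strand): aaagaaaaaagaccttgtacagcagctgtc
Cplx2 undetected probe (chr17:16314592-16314651, minus strand): agttctgtttcactcccaagtagcttggag
Ppfia1 upstream probe (chr1:204916166-204916317, minus strand): acagtttccagtgtggaattatgtgcctga
Ppfia1 downstream probe (chr1:204908301-204908360, minus strand): gtatagctaggctataaatatccttttgag
Ncam1 probe used (chr8:52819570-52819629, minus strand): tgagtgaaacatcaacaccacctttgtttc
Ncam1 other detected probe (chr8:52822367-52822426, minus strand): gccccaaattaagaatctaggaagctcaga
Ncam1 undetected probe (chr8:52822134-52822193, minus strand): atactttccgttcactttgtatttgttccg
Bdnf probe (on a part of chromosome 3 that rn4 does not place): tctgagagacgttagtcaaacaAATAAAag

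The difference between fipronil and control arrays was tested in limma over all 13542 genes and transcripts tested, with Benjamini-Hochberg adjustment and a threshold of 0.05. Of the 19 tested genes 4 passed. The complexin Cplx2, the scaffold gene Ppfia1 and the adhesion molecule gene Ncam1 rose with fipronil, 1.97-fold, 2.17-fold and 1.66-fold. Bdnf passed as lower, but it entered the test through its control arrays and was well above background on 1 of 6 fipronil arrays, so no fold is given. Over all genes 678 passed, which is 5.01% (2.24% higher and 2.77% lower), and nothing is read from the 4 of 19 beside it, since these genes were listed with earlier results of the data known, Bdnf was dim in the fipronil arrays and the Ppfia1 probes differed. The median log2 difference of the 19 genes was -0.04, with 8 higher and 11 lower, beside -0.08 over all genes. The same 4 genes had no overlap between the groups, which held for 4.18% of all genes (1.63% higher and 2.55% lower). With slide as a fixed block, where the difference comes from slide 1, 0 of the 19 passed in limma and 3 had an unadjusted p under 0.05, against 0.0886% of all genes past the threshold and 19% at that unadjusted p.

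Cplx2 encodes complexin 2, which binds the assembled SNARE complex and steadies it until calcium arrives. Its log2 signal was -2.34 at the lowest, -1.95 at the median and -1.84 at the highest over the 6 fipronil arrays, against -3.23, -3.01 and -2.84 over the 6 control arrays. The lowest fipronil value lay above the highest control value. Cplx2 differed by 0.98 ± 0.12 (SE) on the log2 scale (limma adjusted p 0.00551). On slide 1 the values were -2.34 and -2.33 in fipronil replicates 7 and 8, against -3.23 and -3.14 in control replicates 2 and 3. That difference of 0.85 ± 0.14 (SE, slide as a fixed block) had an adjusted p of 0.0588 in limma and an unadjusted p of 7.38e-05, and across slides 3 and 2 the difference was 1.04. The size on slide 1 depended on the background setting, where a normexp background came with an added offset of 50. With that setting the difference was 0.40 after 75th percentile scaling, where the 12 arrays gave 0.85, and 0.35 after quantile normalization. With the filter tightened to probes detected on all 12 arrays, fewer genes were adjusted over and the unadjusted limma p was 4.91e-05. The limma adjusted p of this blocked fit was then 0.0401, within a range of 0.0401 to 0.306 over its alternatives. The values come from the probe nearer the 3′ end, which the files assign to a predicted transcript variant. The other Cplx2 probe, assigned to the curated transcript, was well above background on 0 of 12 arrays, so it gives no second measurement.

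Ppfia1 encodes liprin-alpha-1, a scaffold that organises release sites in neurons and adhesion sites in other cells. The upstream probe stood for the gene as the brighter of 2 over all 12 arrays. In control arrays alone it was the dimmer, with a mean of -2.25 beside -1.90 downstream, so its choice rested on its fipronil values. Its log2 signal ran from -1.48 through a median of -1.15 to -0.70 in fipronil arrays, against -2.60 through -2.21 to -1.89 in control arrays. Every fipronil array was above every control array. The difference was 1.12 ± 0.17 (SE, limma adjusted p 0.00802), with 1.38 across slides 3 and 2 and 0.60 on slide 1 (limma adjusted p 0.213 in the fit blocked on slide).
The downstream probe of Ppfia1, also well above background on all 12 arrays, gave a different answer. Its log2 signal ran from -2.21 through -2.03 to -1.69 in fipronil arrays and from -2.20 through -1.90 to -1.64 in control arrays, so the groups overlapped. It differed by -0.07 ± 0.13 (SE, adjusted p 0.768 in a limma fit over all 16291 kept probes, of which 5.3% passed), with -0.18 on slide 1. With both probes averaged, the Ppfia1 difference was 0.52 ± 0.12 (SE, limma adjusted p 0.0283). The rise of Ppfia1 thus holds for 1 of its 2 probes. With a normexp background and quantile normalization the differences were smaller, 0.42 for Cplx2, 0.63 for Ppfia1 and 0.38 for Ncam1, and each still passed (limma adjusted p 0.00758, 0.00524 and 0.0129).

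Ncam1 encodes the neural cell adhesion molecule, a homophilic adhesion protein of neurons, glia and muscle. At the probe that stood for the gene, its log2 signal ran from -1.46 through -1.25 to -0.88 in fipronil arrays, against -2.18 through -1.96 to -1.62 in control arrays. The difference was 0.73 ± 0.14 (SE, limma adjusted p 0.0171). The other detected probe moved the same way, by 1.05 ± 0.20 (SE, limma adjusted p 0.0151 over all kept probes). Its values lay between -2.46 and -1.20 in fipronil arrays and between -3.04 and -2.45 in control arrays, which overlapped. The higher values were those of slide 3. Fipronil replicates 7 and 8 had -1.46 and -1.44 at the first probe, against -1.62 and -1.78 in control replicates 2 and 3, a difference of 0.25 on slide 1 (limma adjusted p 0.465 in the fit blocked on slide) beside 0.97 across slides 3 and 2.

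Bdnf encodes a secreted neurotrophin that supports neuronal survival and synaptic plasticity. Its log2 signal ran from -5.65 through -4.87 to -4.28 in fipronil arrays, against -4.25 through -3.96 to -3.17 in control arrays. The groups came close, with the highest fipronil value beside the lowest control value. Bdnf differed by -1.07 ± 0.25 (SE, limma adjusted p 0.0306), with -0.75 on slide 1 (limma adjusted p 0.28 in the fit blocked on slide) and -1.23 across slides 3 and 2. It was well above background on 1 fipronil array, replicate 7, so the size of the fall rests on values not well above background. Bdnf did not pass with quantile normalization (adjusted p 0.0566), with the authors' values (0.0541) or with normexp and quantile normalization (-0.25, 0.0551), all in limma. In the 12 fits that left out 1 array Bdnf passed in 4, those without fipronil replicate 7 or 8 or control replicate 3 or 6, with limma adjusted p from 0.0177 to 0.066 over all 12. It turned to a difference of 0.52 with a normexp background scaled to the 75th percentile, under which all genes had a median of 0.17. Its receptor gene Ntrk2 was not tested. The neurturin gene Nrtn had a log2 difference of -0.28 (limma adjusted p 0.309).

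**Figure D2:**
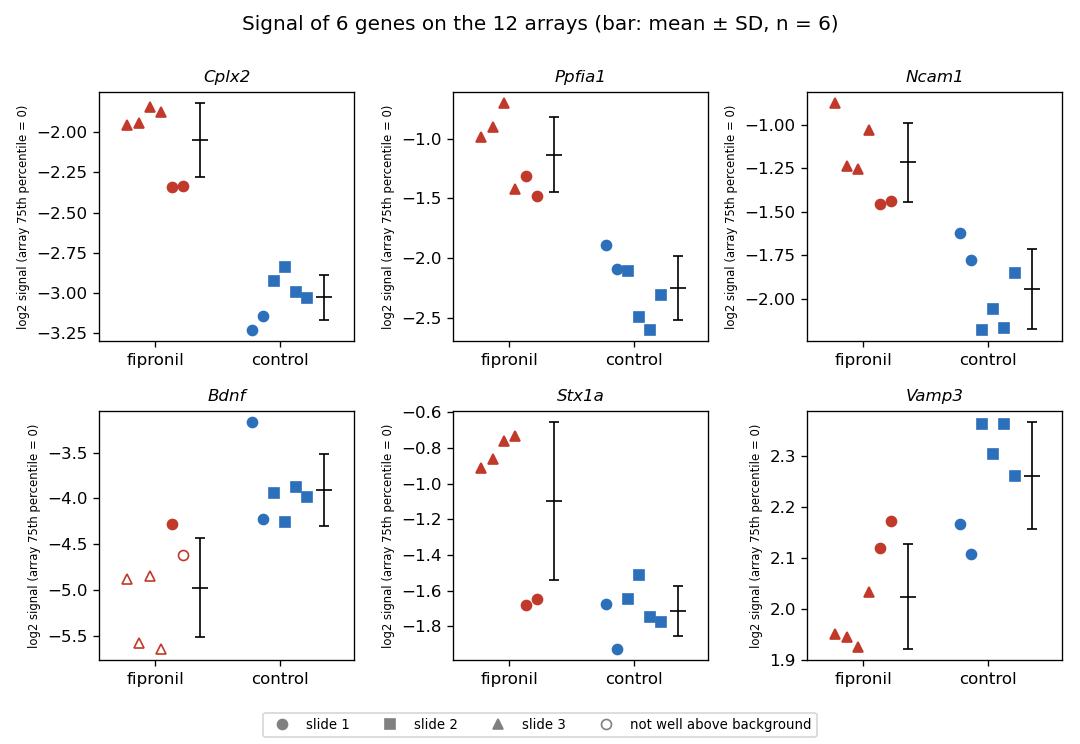
Log2 signal relative to each array's 75th percentile for 6 genes, fipronil arrays left and control arrays right, with symbols for the slide, open symbols for arrays not well above background and bars for the mean ± SD (n = 6). Cplx2, Ppfia1, Ncam1 and Bdnf do not overlap between the 2 groups on slide 1 either, which held for 53.7% of all genes. The slide 1 arrays of Stx1a lie together between -1.93 and -1.65.

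At an unadjusted p under 0.05 stood 6 of the 19 genes, beside 25% of all genes. They were the 4 above and, without passing the threshold, Stx1a and Vamp3. Stx1a encodes syntaxin 1A, the plasma membrane SNARE of synapses. Its log2 signal ran from -1.68 through -0.89 to -0.73 in fipronil arrays, against -1.93 through -1.71 to -1.51 in control arrays. The 4 fipronil arrays of slide 3 lay between -0.91 and -0.73, above all control arrays, whereas fipronil replicates 7 and 8 had -1.68 and -1.65, among the control values. The difference was 0.62 ± 0.18 (SE, limma adjusted p 0.0633), with 0.86 across slides 3 and 2 and 0.14 on slide 1. Without fipronil replicate 7 or 8 it passed, with adjusted p of 0.0257 and 0.0183 in limma.
Vamp3 encodes cellubrevin, the vesicle SNARE of recycling endosomes. Its log2 signal ran from 1.92 through 1.99 to 2.17 in fipronil arrays, against 2.11 through 2.28 to 2.36 in control arrays. Vamp3 differed by -0.24 ± 0.10 (SE, limma adjusted p 0.148), with -0.36 across slides 3 and 2 and 0.01 on slide 1.

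The other 13 tested genes had an adjusted p of at least 0.23 in limma. Among the SNARE genes, the vesicle SNAREs Vamp1 and Vamp2 differed by 0.45 (95% interval -0.03 to 0.93) and -0.02 (-0.25 to 0.21), and Snap23 and Snap29, relatives of SNAP-25 in general membrane fusion, by -0.07 (-0.40 to 0.27) and 0.28 (-0.24 to 0.81). The plasma membrane syntaxin Stx4 differed by -0.09 (-0.51 to 0.32) at the probe used, which is assigned to a predicted transcript. The Stx4 probe assigned to the curated transcript was dimmer, with a control mean of 0.54 beside 2.98. It differed by -0.01 ± 0.12 (SE). Whether the brighter probe reads Stx4 RNA alone was not tested. For the disassembly machinery, Nsf differed by 0.23 (-0.04 to 0.51) and Napa by -0.21 (-0.63 to 0.22). These intervals come from the fit without a slide term and do not cover differences between slides. Even so they leave room for changes of up to 0.93 on the log2 scale, so a p that misses the threshold does not show equal levels. Syt11 differed by -0.06 (-0.33 to 0.22), Sypl1 by -0.04 (-0.46 to 0.39), Stmn1 by 0.10 (-0.16 to 0.36) and L1cam by -0.10 (-0.41 to 0.22). The widest intervals were those of Tubb3, from -1.39 to 0.68, and Dlg4, from -2.05 to 0.46. The slide 1 differences of Snap29, Vamp1, Syt11, Sypl1, Stmn1 and Tubb3 lay outside their intervals. Those of Snap23, Vamp2, Stx4, Nsf, Napa, L1cam and Dlg4 lay inside.

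Tubb3 and Dlg4, the scaffold that anchors receptors at the postsynaptic density, varied more between arrays of 1 group than between the groups. Tubb3 ran from -5.30 to -2.75 in fipronil arrays and from -4.59 to -2.04 in control arrays. Dlg4 ran from -5.95 to -3.87 in fipronil arrays and from -6.36 to -2.82 in control arrays, with control replicate 5 lowest and not well above background. Neither can be read as higher or lower from these values.

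**Figure D3:**
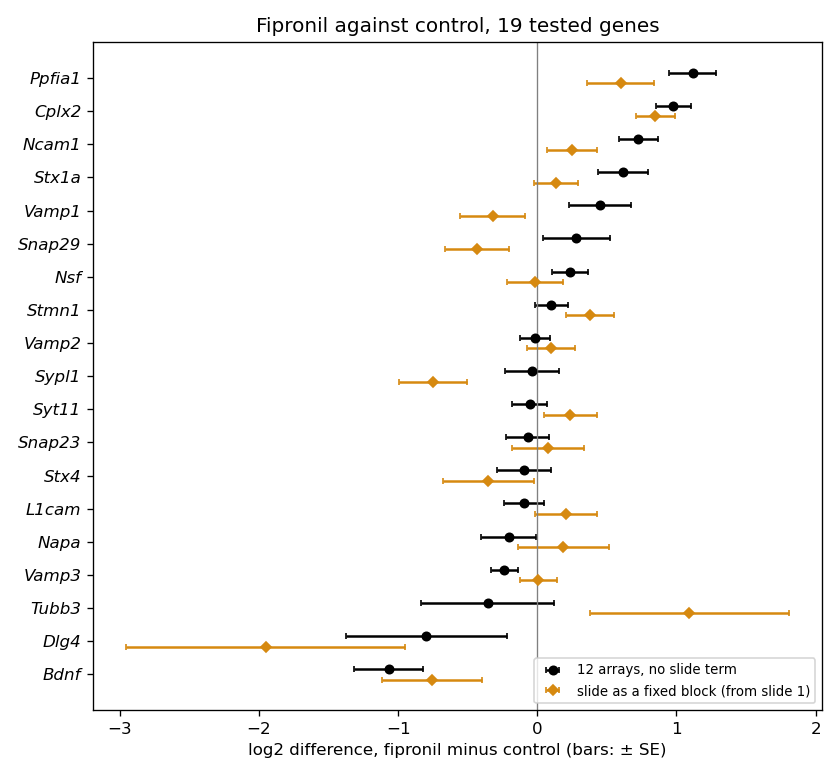
Log2 difference of the 19 tested genes, fipronil minus control, with SE bars, from the fit over 12 arrays (black circles) and with slide as a fixed block (orange diamonds). Cplx2 has nearly the same value in both, 0.98 and 0.85. Snap29, Vamp1 and Tubb3 change sign, as do Snap23, Vamp2, Vamp3, Nsf, Napa, Syt11 and L1cam.

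Of the 19 genes 13 had opposite signs on slide 1 and across slides 3 and 2, as did 56.2% of all genes. Snap29, which acts in fusion of autophagosomes and endosomes, had a difference of -0.43 within slide 1 and of 0.64 across slides 3 and 2. Fipronil replicates 7 and 8 had the lowest Snap29 values of all arrays, -0.98 and -1.25, and the 4 fipronil arrays of slide 3 had the highest, -0.27 to 0.37. Within slide 1 the Sypl1 difference was -0.75 (unadjusted p 0.011, limma adjusted p 0.155 in the fit blocked on slide), beside 0.32 across slides 3 and 2. For Vamp1 the values were -0.32 within slide 1 and 0.83 across slides 3 and 2, and for Tubb3 they were 1.09 and -1.08 in that order. The 4 genes past the threshold had the same sign in both. With no overlap between the groups over the 12 arrays, their signs could not differ. On slide 1 alone 12 of the 19 genes had no overlap between 2 fipronil and 2 control arrays, near the 53.7% of all genes.

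**Figure D4:**
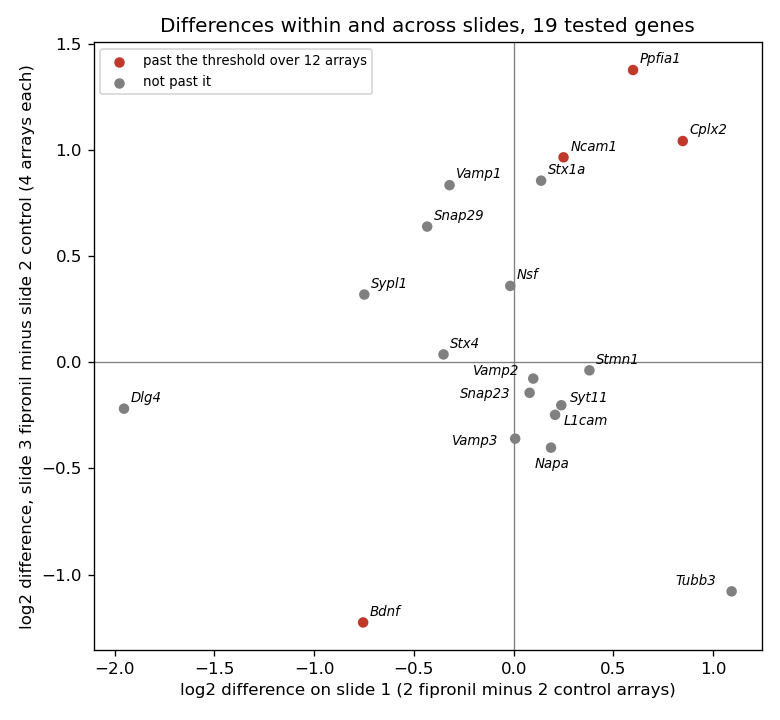
Log2 difference on slide 1 (2 fipronil minus 2 control arrays, horizontal) against the log2 difference between slide 3 fipronil and slide 2 control arrays (4 each, vertical), 1 point for each of the 19 tested genes, red where the gene passed the threshold over 12 arrays. Cplx2, Ppfia1 and Ncam1 lie upper right and Bdnf lower left, and Snap29, Sypl1 and Vamp1 lie upper left.

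For 7 genes more than 1 probe was kept. Probes of Snap23 differed by -0.07 and 0.29, those of Stmn1 by 0.10 and -0.30, and those of Stx4 by -0.09, 0.34 and -0.01 on the log2 scale. The 3 Sypl1 probes differed by -0.04, -0.19 and -0.39 over 12 arrays and agreed on slide 1, with -0.75, -0.84 and -0.73. The second Syt11 probe, assigned to the curated transcript, differed by -0.83 ± 0.29 (SE, limma adjusted p 0.0984 over all kept probes), with 1 of 6 fipronil and 6 of 6 control arrays well above background, beside -0.06 at the probe used. Of these 7 genes Ppfia1 is the one where a probe past the threshold stood beside a kept probe that was not.

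**Figure D5:**
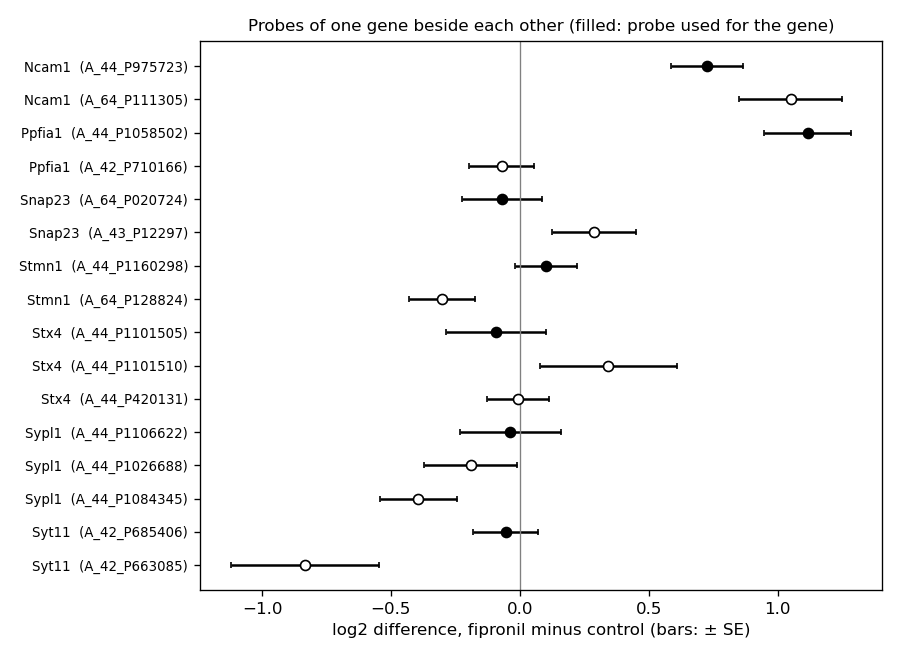
Log2 difference, fipronil minus control, with SE bars, for each kept probe of the 7 genes with more than 1, filled where the probe stood for the gene. Both Ncam1 probes lie above 0, at 0.73 and 1.05, whereas the Ppfia1 probes lie at 1.12 and -0.07.

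Beyond the 41 genes, 227 other genes of the same machinery were listed in 9 groups. On the array were 221 of them, and 116 were tested. Of these 116, 2 rose and 0 fell in limma, 26 had an unadjusted p under 0.05, beside 5.01% and 25% of all genes, and the median log2 difference was -0.02. Bin1, an amphiphysin gene of endocytic membrane curvature and 1 of 19 genes tested in the vesicle membrane and recycling group, rose 1.44-fold (log2 difference 0.52 ± 0.12 SE, limma adjusted p 0.0284), with 0.40 on slide 1 and no overlap between the groups. Map7, which encodes a microtubule-binding protein and was 1 of 26 tested in the cytoskeleton group, rose 1.74-fold (0.80 ± 0.21 SE, limma adjusted p 0.048), with 0.50 on slide 1. With slide as a fixed block 0 of the 116 passed.

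Among the 27 tested SNARE proteins and their regulators 0 passed, with 5 at an unadjusted p under 0.05, the Golgi SNARE Gosr2 (-0.45, limma adjusted p 0.0519) and Snapin (0.65, 0.086) having the smallest. Of 20 listed synaptotagmins and related calcium sensors 5 were tested, and Syt5 (-0.44) and the extended synaptotagmin Esyt2 (0.63) had the smallest p. Both had the opposite sign on slide 1, at 0.18 and -0.15. Of 25 listed active zone genes, Unc13, Bassoon and liprin family members among them, 24 were on the array and 8 were tested. The ELKS gene Erc2 had a log2 difference of 0.91 (limma adjusted p 0.0573), with -0.09 on slide 1. Apba3, a Mint family adaptor, was next, at 0.17 (limma adjusted p 0.322). In the postsynaptic and adhesion group 10 of the 26 on the array were tested. Cadm1 (0.37) and Nrxn2 (0.33) had no overlap between the groups without passing (limma adjusted p 0.0603 and 0.0986). Of the neuronal RNA-binding group 10 of the 16 on the array were tested. Ptbp1, which represses neuronal exons, differed by -0.30 and Celf1 by -0.29 (limma adjusted p 0.133 and 0.105). For axonal adhesion 4 of the 15 on the array were tested, with Cntn2 at -0.33 and Alcam at 0.61 (limma adjusted p 0.217 and 0.357). On slide 1 Cntn2 was at 0.05 and Alcam at 0.003. The genes given here with a difference, other than Syt5, Esyt2, Erc2 and Cntn2, kept their sign on slide 1.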

How the data were processed

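Agilent Feature Extraction 10.7 read the spots, per the submitters' processing notes. The deposited processed signal is a background-subtracted, detrended intensity, not scaled between arrays, per the file headers. The well above background, saturation and outlier columns are other values, flags of 0 or 1, per the file headers. The deposited series table holds the authors' log2 values after quantile normalization, per the labels' titles, with a median of 2.63 in every column, and it served as an alternative. Spots flagged as outliers were left out, log2 signals were set relative to each array's 75th percentile, and spots of a probe were averaged. Probes well above background on at least 6 of 12 arrays were kept (16291), and the brightest stood for its gene. Names came from RefSeq (GRCr8), by accession for 21109 probes and by symbol for 6684 and synonym for 424, and from the files for 17381. Groups were compared with limma 3.58.1 in R 4.3.3 (two-sided), and the script was tested on simulated data. No slide term was used in the main comparison, since slides 2 and 3 hold 1 treatment each. Adding slide as a fixed block gave slide 1 apart. The members, lists and naming rule were chosen with earlier results of these data known. Genes with an unadjusted p under 0.05 were described in full, and up to 3 genes past the threshold, or the 2 with the smallest p, per other list. 1 gene that this rule names is not reported here.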

Additional observations from a re-analysis of the deposited data

Results flagged for a closer look

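Of 38 groups of 6 arrays (19 genes in each treatment), 4 held 1 array set apart from the other 5, where chance alone gives about 5% of groups. Sypl1 was lowest in fipronil replicate 8, at 0.87, with the next at 1.55. Tubb3 was lowest in fipronil replicate 2, at -5.30, where it was not well above background, with the next at -3.60. Napa was highest in control replicate 5, at -1.02, with the next at -1.41. Bdnf was highest in control replicate 2, at -3.17, with the next at -3.87, and without that array Bdnf had a log2 difference of -0.92 and did not pass (limma adjusted p 0.0532).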

How the results depend on the processing

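The number of genes called depended on the processing. Quantile normalization, median scaling, normexp with quantile normalization, the authors' values, detection on all 12 arrays and averaged probes gave 585 to 1012 genes in all, beside 678, and 3 or 4 of the 41, with Bdnf lost in the 3 quantile-normalized settings and replaced by Stx1a with detection on all 12 arrays. Median scaling moved the split to 150 higher and 435 lower, beside 303 and 375, with the median of all genes at -0.18. Each normexp setting also added an offset of 50. A normexp background with 75th percentile scaling gave 6776 genes (5116 higher), 10 of the 41 and 62 of the other lists, and the median of the members became 0.32. Without a filter on dim probes the figures were 16313 (15088 higher), 20, 66 and 0.62, with the median of all genes at 0.55. The other lists, with 2 genes called, gave 0 with median scaling, 4 with averaged probes, 5 with normexp and quantile normalization and 6 with detection on all 12 arrays. Slide as a fixed block gave 12 genes, 0 of the 41 and 0 of the other lists, and slide as a random block 21, 1 (Cplx2) and 0. Slides 2 and 3 alone, a choice made after seeing the data, gave 3044, 8 and 29, but there slide and treatment cannot be told apart. The 12 genes of the slide 1 estimate became 202 with normexp and 75th percentile scaling, 56 with normexp and quantile normalization and 3 without the filter. Detection on all 12 arrays gave 1 member there, Cplx2.

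Leaving out each array in turn gave 228 to 2022 genes, 3 to 6 of the 41 and 0 to 15 of the other lists, and a median of -0.06 to 0.02. The highest of these counts came without fipronil replicate 8, and every array other than fipronil replicate 7 moved the count of 678 by over 1.5 times. The other lists gave 5 without fipronil replicate 7, 1 without control replicate 2 or 5, and 0 without any of control replicates 3, 6, 7 and 8 or fipronil replicates 1 to 4. In the slide 1 estimate the range was 0 (without fipronil replicate 8) to 125 (without fipronil replicate 7), with 3 without control replicate 3, and 0 to 0 for the 41. In the 12 fits without a slide term that left out 1 array, Cplx2, Ncam1 and Ppfia1 passed each time. Those fits keep the probe chosen for each gene, so they test neither slide nor probe choice. Among the 6 members described in full, directions turned for Vamp3, Bdnf and Ppfia1. Vamp3 gave 0.0076 with slide as a fixed block and Bdnf 0.52 with normexp and 75th percentile scaling. Ppfia1 gave -0.0703 at the downstream probe, a probe-level fit chosen after seeing the data. With slide as a fixed block other tested members turned as well, Snap29, Vamp1 and Tubb3 among them. These causes were not tested.

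Same-numbered arrays (2, 3, 7 and 8) lie on different slides, and their deviations from the group means correlated at 0.43, 0.08, -0.11 and -0.31 over genes, so they were not used as pairs. The labels do not say what a number stands for. A fit with the replicate number as a block called 0 genes in all, 0 of the 41 and 0 of the other lists (limma). Signal over background limits Bdnf, Dlg4 and Tubb3 and leaves 22 of the 41 genes without a measured difference.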
